A study of Homo sapiens with 12 samples.

Results

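The enzymes described here add the choline, ethanolamine or serine head group to the glycerol backbone of membrane phospholipids. The set held 10 genes chosen by symbol from the 60670 genes of the count table. CHKA, CHKB, PCYT1A and CHPT1 belong to the choline branch, and CEPT1 is shared by the choline and ethanolamine branches. ETNK1 and PCYT2 belong to the ethanolamine branch, and PTDSS1, PTDSS2 and PISD to the phosphatidylserine route. The list was drawn up with CHPT1 and PISD set against the steps around them, after the difference between the groups was known, so the members' values under dihydrotestosterone are given as a description and carry no test. RNA was sequenced from MDA-MB-453, an established human breast cancer line that lacks the estrogen receptor and expresses the androgen receptor. All cultures spent 72 h in DMEM of high glucose content, to which 10% FBS had been added. They then received either 0.001% ethanol (vehicle, 6 libraries) or 10 nM dihydrotestosterone (DHT, the high-affinity natural ligand of the androgen receptor, 6 libraries) for 6 h. The 6 replicates of a group came from successive passages of the single line, so the spread given below is the spread between passages and says nothing of other lines or of tumours.

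Phosphatidylcholine and phosphatidylethanolamine are the main phospholipids of mammalian membranes, and both are built in the same order in the Kennedy pathway. A kinase phosphorylates choline or ethanolamine, a second enzyme turns the product into its CDP form, and a transferase passes the head group to diacylglycerol. Phosphatidylserine is made by exchanging the head group of an existing phospholipid for serine, and in mitochondria PISD removes the carboxyl group of phosphatidylserine to give phosphatidylethanolamine. The step that forms CDP-choline is regarded as rate-limiting for phosphatidylcholine in most cells.

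The shallowest library (vehicle replicate 6) had 4346465 counts and the deepest (DHT replicate 2) had 25678781, and depth differed by less than the spread between replicates (exact two-sided permutation p = 0.628, adjusted p = 0.628 over 2 measures). The share of counts on mitochondrial genes was 4.88% ± 1.81 in vehicle and 3.41% ± 0.354 in DHT (SD, n = 6), a difference that did not pass (exact two-sided permutation p = 0.0563, adjusted p = 0.113). FKBP5, a well-known direct target of steroid receptors, measured 56.9 to 102 CPM (counts relative to the library total after TMM scaling, the trimmed mean of M-values) in vehicle and 244 to 424 CPM in DHT. All 8 luminal markers passed the filter on low counts and summed to 7338 to 15794 CPM in vehicle and 5681 to 10862 CPM in DHT, and ESR1 and PGR, the estrogen and progesterone receptor genes, summed to at most 0.876 CPM in any library. Of the markers of other cells, 0 of 5 leukocyte and 0 of 4 endothelial genes passed the filter, and the T cell gene CD3E was at 0 in every library. The summed level of 5 basal markers, of which 2 passed, was 13.8 to 21.8 CPM in vehicle and 5.64 to 7.37 CPM in DHT. Most of this fall was in TP63, with a mean of 8.79 CPM in vehicle and 1.46 CPM in DHT. That of 6 fibroblast markers, of which 3 passed, was mostly COL1A1, at 76.4 to 110.4 CPM in vehicle and 59.9 to 75.8 CPM in DHT. The part of these markers in the results below was not tested.

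The head group enzymes did not move as a block. CHPT1, which makes phosphatidylcholine in the last step of the choline branch, was about 3-fold higher in DHT, and PISD, which makes phosphatidylethanolamine in mitochondria, was about 2-fold higher. The other 8 members had log2 fold changes between -0.19 and 0.44. A gene was counted as changed where its Benjamini-Hochberg adjusted p, from edgeR's quasi-likelihood test over 16355 genes, was under 0.05. All 10 members passed the filter on low counts. On that rule 2 of 10 members were changed, both higher in DHT, against 2.84% of all tested genes (1.96% higher and 0.88% lower). The groups did not overlap for the same 2 members, against 3.27% of all tested genes. These shares follow from how the members were chosen. The members' median log2 fold change was -0.03, beside -0.05 over all genes tested. The 464 changed genes behind the 2.84% became 278 to 619 when single libraries were left out, 278 without DHT replicate 1. In bulk RNA, more transcript per cell and more cells that carry it cannot be told apart.

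**Figure D1:**
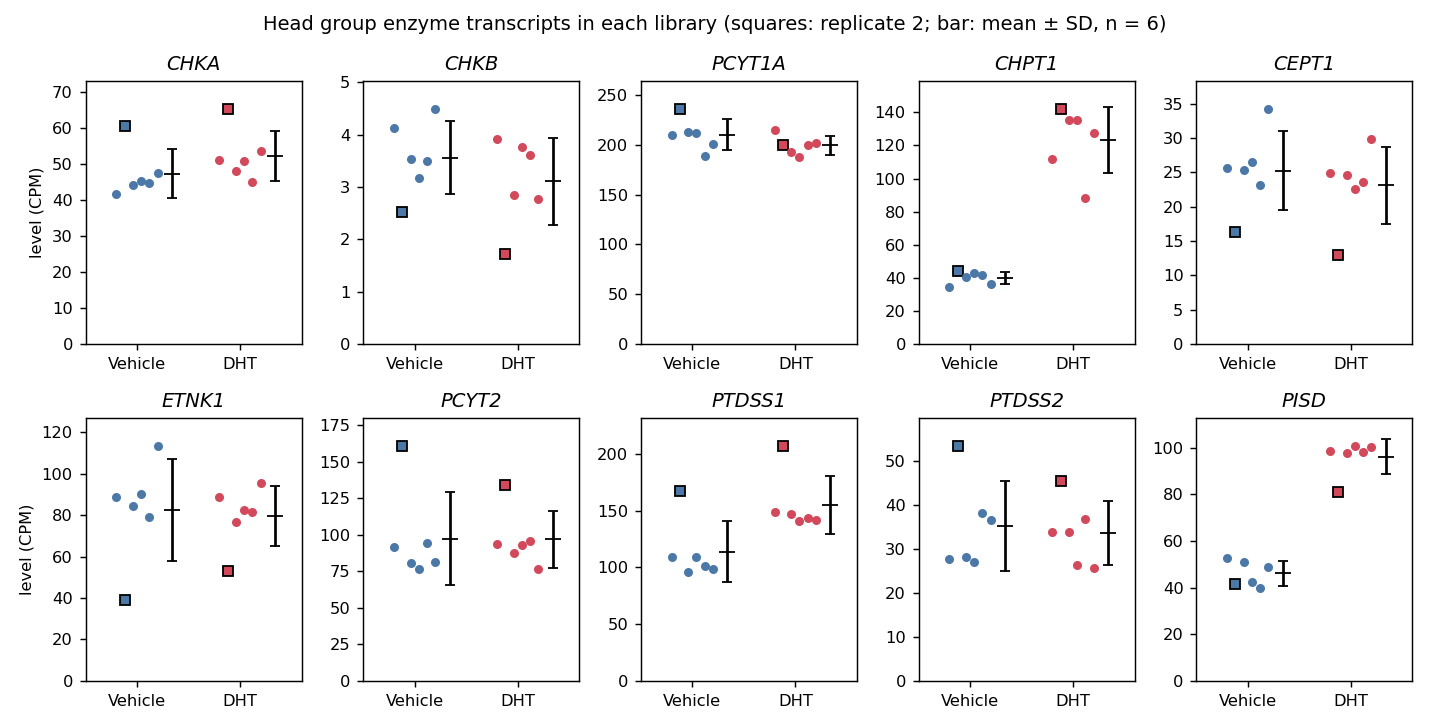
Levels of the 10 head group enzyme transcripts in CPM (vertical axes, each from 0), with 1 point per library for vehicle and DHT and the mean ± SD beside the points (n = 6). CHPT1 and PISD have no vehicle library as high as any DHT library, and the squares, which mark replicate 2, sit at an edge of both groups for most other members.

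The first step of the choline branch is carried out by the choline kinases. CHKA, the more widely studied of them in breast cancer, measured 41.6 CPM at its lowest, 45.0 at the median and 60.5 at its highest in vehicle, and 45.1, 51.0 and 65.2 CPM in DHT (log2 fold change 0.15, SE 0.12). The DHT library was the higher one in all 6 replicate numbers, which are not read as pairs, but the groups overlapped over most of their range. CHKB, the muscle-associated choline kinase, was the least abundant member: 2.52, 3.52 and 4.49 CPM in vehicle against 1.73, 3.23 and 3.91 CPM in DHT (-0.19, SE 0.22). The difference in CHKB, measured from 21 to 69 counts per library, was smaller than its SE. CHKB also shares 2078 of its 2866 exon bases (72.5%) with the read-through gene CHKB-CPT1B, which measured 2.72 ± 1.21 CPM in vehicle and 2.20 ± 1.06 CPM in DHT (SD, n = 6; log2 fold change -0.29, edgeR adjusted p = 0.905). Reads from these loci on chromosome 22 (CHKB spans 50578959 to 50601455, GRCh38, minus strand) may not be separable.

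PCYT1A, which forms CDP-choline, was the steadiest of the members. Its vehicle libraries measured 189, 211 and 236 CPM at the lowest, median and highest, and its DHT libraries 187, 199.7 and 215 CPM (log2 fold change -0.07, SE 0.09). The DHT range lay almost wholly within the vehicle range. The gene lies on chromosome 3 (196214222 to 196287957, minus strand), and 389 of its exon bases overlap the antisense gene SLC51A, which measured 4.33 CPM or less on average in either group.

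CHPT1 (ENSG00000111666, chromosome 12, 101696947 to 101744140, GRCh38, plus strand) encodes cholinephosphotransferase, a Golgi enzyme that joins CDP-choline to diacylglycerol. Its 6 vehicle libraries lay between 34.3 and 44.3 CPM with a median of 41.0 CPM, and its 6 DHT libraries between 88.5 and 142 CPM with a median of 131 CPM. Every DHT library lay well above every vehicle library. Means were 39.95 ± 3.88 and 123 ± 19.97 CPM (SD, n = 6), a 3.09-fold difference (log2 fold change 1.63, SE 0.13). Among the raised genes with a mean level of at least 10 CPM it ranked 13 by size of the rise. In the authors' deposited table, CHPT1 is marked as changed with a log2 fold change of 1.56.

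CEPT1 (chromosome 1, 111139627 to 111185104, plus strand) encodes the enzyme that carries out the same last step in the endoplasmic reticulum and takes both CDP-choline and CDP-ethanolamine. It measured 16.4, 25.5 and 34.2 CPM in vehicle and 12.98, 24.1 and 29.9 CPM in DHT (log2 fold change -0.12, SE 0.20). The groups overlapped almost entirely, and replicate 2 was the lowest library of each. Within each library, the log2 ratio of CHPT1 to CEPT1, both per kb of exon, ran from 0.58 to 1.92 in vehicle (median 1.17) and from 2.40 to 3.94 in DHT (median 2.80). The groups were thus fully apart in this ratio, with a mean difference of 1.75 on the log2 scale. The ratio of CHPT1 to PCYT1A, the step before it, behaved likewise, at -2.20 to -1.77 in vehicle and -0.76 to -0.06 in DHT (difference 1.69).

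The promoter stretches of these 2 enzymes of the same step, one higher in DHT and one not, are printed so that they can be read against each other. The windows are RefSeq's (GRCh38.p14), which run from 250 bases before a RefSeq start to 50 bases after it, and the 250 bases before that start are shown. RefSeq's starts differ from the outer ends of the gene spans given here. The CHPT1 stretch lies wholly, and the CEPT1 stretch mostly, inside the span of its gene. Capitals mark AGAACA, the half-site bound by the androgen receptor and its relatives, and GGGCGG, the GC box bound by Sp-family factors, on either strand, with overlapping matches counted. The CHPT1 stretch is chr12:101697390-101697639, lies on the plus strand and holds 3 GC boxes, of which 2 overlap, and no AGAACA. The CEPT1 stretch is chr1:111139599-111139848, lies on the plus strand and holds 2 GC boxes and 1 AGAACA, while a second RefSeq window of CEPT1 holds neither.
CHPT1: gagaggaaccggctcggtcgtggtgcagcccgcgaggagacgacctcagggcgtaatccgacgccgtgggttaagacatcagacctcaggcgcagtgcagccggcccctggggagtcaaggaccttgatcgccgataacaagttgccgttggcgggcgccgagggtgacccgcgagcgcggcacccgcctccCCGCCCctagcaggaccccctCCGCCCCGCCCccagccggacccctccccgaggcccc
CEPT1: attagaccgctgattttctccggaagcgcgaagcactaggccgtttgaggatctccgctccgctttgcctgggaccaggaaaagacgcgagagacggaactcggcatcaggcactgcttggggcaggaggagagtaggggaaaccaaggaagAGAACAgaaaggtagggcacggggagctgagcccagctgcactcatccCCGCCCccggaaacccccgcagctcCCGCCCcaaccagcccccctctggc

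Windows on chromosome 8, where PTDSS1 lies, were left out of this count for members and for all genes. Windows were found for 8 of the 10 members, 12 windows in all. AGAACA was in 1 of these 12 windows, that of CEPT1, and in 14.8% of the 35116 windows of the same length on the other chromosomes. The GC box was in 9 of 12 member windows and in 45.0% of all windows, and CACGTG, the E-box, in 1 of 12 (PTDSS2) and in 7.26% of all. A match here is only a run of letters and was not tested as a binding site.

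Neither member that belongs to the ethanolamine branch alone set apart the groups. ETNK1, ethanolamine kinase, measured 38.9, 86.7 and 113 CPM in vehicle and 53.1, 82.0 and 95.3 CPM in DHT (log2 fold change -0.05, SE 0.21). PCYT2, which forms CDP-ethanolamine, measured 76.4, 86.6 and 161 CPM in vehicle and 76.7, 93.4 and 134 CPM in DHT (-0.0098, SE 0.19). Replicate 2 held the lowest ETNK1 and the highest PCYT2 value of both groups. Without it, ETNK1 ran from 79.3 to 113 CPM in vehicle and 76.6 to 95.3 CPM in DHT, and PCYT2 from 76.4 to 94.1 and from 76.7 to 95.7 CPM. ETNK1 lies on chromosome 12 (22625075 to 22690665, plus strand) and PCYT2 on chromosome 17 (81900958 to 81911432, minus strand).

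The phosphatidylserine synthases exchange head groups in the endoplasmic reticulum. PTDSS1, which prefers phosphatidylcholine as its substrate, measured 96.2, 105 and 167 CPM in vehicle and 141, 145 and 207 CPM in DHT, with means of 114 ± 26.7 and 155 ± 25.7 CPM (SD, n = 6). Vehicle replicate 2, at 167 CPM, was the only vehicle library that reached the DHT range. The other 5 vehicle libraries lay between 96.2 and 109.6 CPM and the other 5 DHT libraries between 141 and 149 CPM. The log2 fold change was 0.44 (SE 0.15), and DHT was higher in 6 of 6 replicate numbers, which are not read as pairs. PTDSS1 did not count as changed with all 12 libraries and group as the only term. It did with the replicate number as a block, where the log2 fold change was 0.46. PTDSS1 also counted as changed without vehicle replicate 2, at a log2 fold change of 0.58, and without both replicate 2 libraries, at 0.49.

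PTDSS2, which prefers phosphatidylethanolamine, measured 27.1, 32.5 and 53.5 CPM in vehicle and 25.6, 33.9 and 45.5 CPM in DHT (log2 fold change -0.06, SE 0.19). Its groups overlapped throughout. Within libraries the log2 ratio of PTDSS1 to PTDSS2 per kb ran from 1.41 to 2.02 in vehicle and from 1.96 to 2.47 in DHT, so that the groups touched at their edges (difference 0.51).

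PISD (ENSG00000241878, chromosome 22, 31618491 to 31662432, GRCh38, minus strand) encodes phosphatidylserine decarboxylase of the inner mitochondrial membrane. In vehicle it measured 39.8 CPM at its lowest, 45.7 at the median and 52.6 at its highest, and in DHT 80.9, 98.3 and 101 CPM. No vehicle library reached the DHT range, in which 5 of 6 libraries fell within 97.8 to 101 CPM and replicate 2 alone lay lower. Means were 46.1 ± 5.42 and 96.1 ± 7.52 CPM (SD, n = 6), a 2.09-fold difference (log2 fold change 1.06, SE 0.10), and PISD ranked 42 among the raised genes with a mean level of at least 10 CPM. In the authors' deposited table, PISD is marked as changed with a log2 fold change of 1.07. One of its RefSeq promoter windows is shown to set beside that of CHPT1. The 250 bases before the RefSeq start, chr22:31662216-31662465 read on the minus strand, lie mostly inside the gene span given above. They hold 2 GC boxes (capitals), 1 on each strand, and no AGAACA, and the other window of PISD holds neither.
PISD: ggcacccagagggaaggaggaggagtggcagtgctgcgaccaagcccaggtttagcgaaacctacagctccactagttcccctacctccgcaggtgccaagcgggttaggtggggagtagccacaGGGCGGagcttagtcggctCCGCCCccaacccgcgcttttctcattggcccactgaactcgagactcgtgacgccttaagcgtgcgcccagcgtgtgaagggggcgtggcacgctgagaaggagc

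Set against the synthases that supply its substrate, PISD was higher in DHT by 0.61 on the log2 scale relative to PTDSS1 and by 1.11 relative to PTDSS2. The PISD to PTDSS1 ratio per kb ran from -1.72 to -0.63 in vehicle and from -1.07 to -0.20 in DHT, and the groups overlapped only through the replicate 2 libraries: without them the ranges were -1.08 to -0.63 and -0.31 to -0.20. PISD relative to PCYT2, the middle step of the other route to phosphatidylethanolamine, ran from -1.49 to -0.20 in vehicle and from -0.27 to 0.84 in DHT. Here too the overlap came from replicate 2, without which DHT libraries lay at 0.49 to 0.84 and vehicle libraries at -0.78 to -0.20. Of the ratios that involve neither CHPT1 nor PISD, that of PTDSS1 to PTDSS2 differed by 0.51 as above, CHKA to CHKB by 0.37, CHKA to ETNK1 by 0.15 and PCYT1A to PCYT2 by -0.09, each with overlapping groups.

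**Figure D2:**
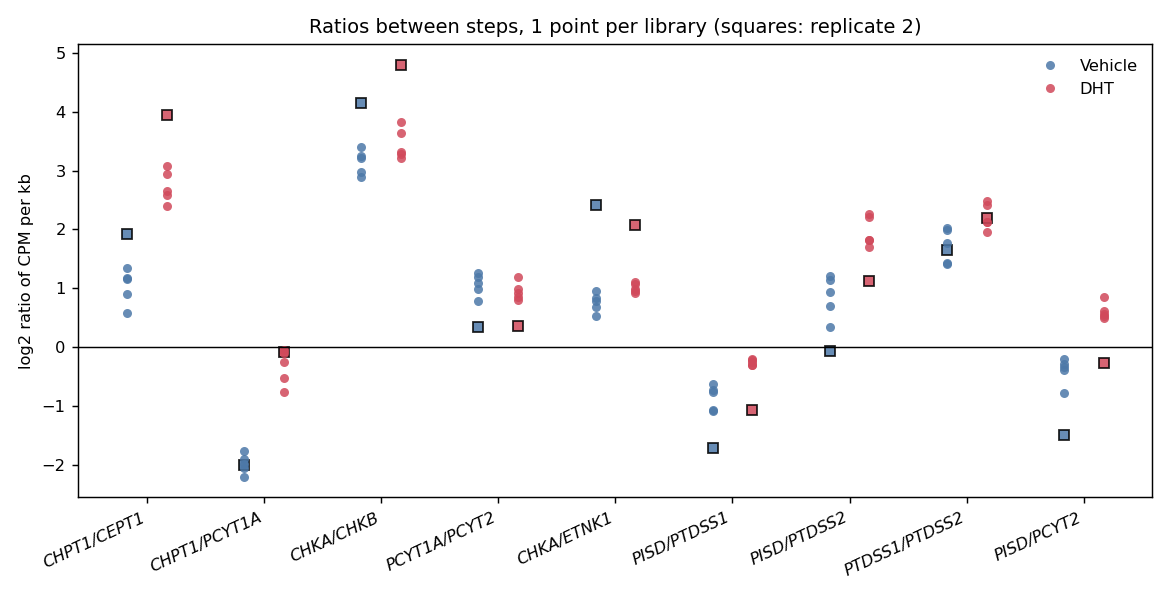
Log2 ratio of CPM per kb of exon between pairs of enzymes (horizontal axis) in each library, vehicle in blue and DHT in red, with squares for replicate 2. CHPT1/CEPT1 and CHPT1/PCYT1A separate the groups in every library, and the ratios of PISD separate them once the squares are set aside.

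Per kb of exon, the order of the levels changed at these points. In vehicle, PCYT1A was the highest member at 26.4 ± 1.96 CPM per kb, followed by PTDSS1 (18.6 ± 4.38), PCYT2 (14.2 ± 4.62), CHKA (12.2 ± 1.74), PISD (9.21 ± 1.08), CHPT1 (6.67 ± 0.647), ETNK1 (6.20 ± 1.83), PTDSS2 (5.77 ± 1.66), CEPT1 (3.00 ± 0.682) and CHKB (1.24 ± 0.243; SD, n = 6 throughout). The neighbours PTDSS1 and PCYT2, PCYT2 and CHKA, and the run of CHPT1, ETNK1 and PTDSS2 differed by less than their spread. In DHT, CHPT1 stood at 20.6 ± 3.33 and PISD at 19.2 ± 1.503 CPM per kb, below PTDSS1 (25.4 ± 4.21) and PCYT1A (25.03 ± 1.17) and above PCYT2 (14.1 ± 2.84), CHKA (13.5 ± 1.79) and the rest. CHPT1 and PISD differed from each other by less than their spread there, as did PTDSS1 and PCYT1A, PCYT2 and CHKA, and ETNK1 (5.99 ± 1.09) and PTDSS2 (5.51 ± 1.19). Both orders depend on the exon length used. Other lengths were tried in vehicle only, where they moved CHPT1 and PISD, and the order in DHT was not checked with them.

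Genes around the head group step were taken from a list of 70, in 11 roles, of which 63 passed the filter. The list was written from general knowledge, but with earlier results of these data known. In this list 3 genes rose and 0 fell (4.76% changed, against 2.84% of all genes tested), and 60 did not pass. The median log2 fold change was -0.02. At an unadjusted p under 0.05, edgeR gave 4 higher and 6 lower, and DESeq2 and limma-voom also called these 3 genes and no falls.

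SELENOI, the ethanolamine phosphotransferase that ends the ethanolamine branch as CHPT1 ends the choline branch, rose in DHT. It measured 101, 109 and 120 CPM in vehicle and 140, 155 and 169 CPM in DHT (log2 fold change 0.49, SE 0.09, edgeR adjusted p = 0.0082). The groups did not overlap. SELENOI lies on chromosome 2 (26308547 to 26395891). The other tested head group enzymes outside the 10 were ETNK2, a second ethanolamine kinase, at 87.5 ± 61.6 and 82.2 ± 45.97 CPM, and PEMT, which methylates phosphatidylethanolamine to phosphatidylcholine, at 13.9 ± 7.61 and 14.99 ± 5.78 CPM (SD, n = 6). Neither passed (edgeR adjusted p = 0.973 and 0.957).

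MBOAT2, a lysophospholipid acyltransferase that remodels acyl chains (chromosome 2, 8852690 to 9003709), rose from 120, 141 and 161 CPM to 182, 194 and 226 CPM, also with no overlap (log2 fold change 0.53, SE 0.11, edgeR adjusted p = 0.0143). FAR2, a fatty acyl-CoA reductase that supplies fatty alcohols for ether lipids (chromosome 12, 29149103 to 29340980), rose from 3.71, 4.85 and 6.41 CPM to 5.69, 10.6 and 16.7 CPM (1.17, SE 0.25, edgeR adjusted p = 0.0183). It was higher in 6 of 6 replicate numbers, which are not read as pairs, and its groups overlapped at their edges. The annotation lists pseudogene copies of FAR2, so its count is uncertain. FAR2 missed the threshold without vehicle replicate 3 (adjusted p = 0.0507) and without DHT replicate 6 (adjusted p = 0.0521). Without a filter on low counts, SELENOI and MBOAT2 missed it narrowly, at adjusted p = 0.0503 and 0.0537.

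By role, 0 of 6 tested genes for choline and ethanolamine uptake passed, 0 of 3 for side reactions of choline and ethanolamine phosphate, 0 of 10 for glycerol backbone and diacylglycerol supply and 0 of 7 for the CDP-diacylglycerol branch. Of the tested genes for triacylglycerol synthesis 0 of 2 passed, for phospholipid breakdown to head groups 0 of 8, for sphingomyelin synthesis 0 of 3 and for lipid transfer to and in mitochondria 0 of 7. Acyl chain remodelling had 1 of 9 (MBOAT2) and ether lipid synthesis 1 of 5 (FAR2). SGPL1, singled out after its values were seen, cleaves sphingosine phosphate to give ethanolamine phosphate. It measured 72.1 ± 8.59 CPM in vehicle and 59.2 ± 3.29 CPM in DHT with no overlap between groups, yet missed the threshold (log2 fold change -0.28, SE 0.10, edgeR adjusted p = 0.196).

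**Figure D3:**
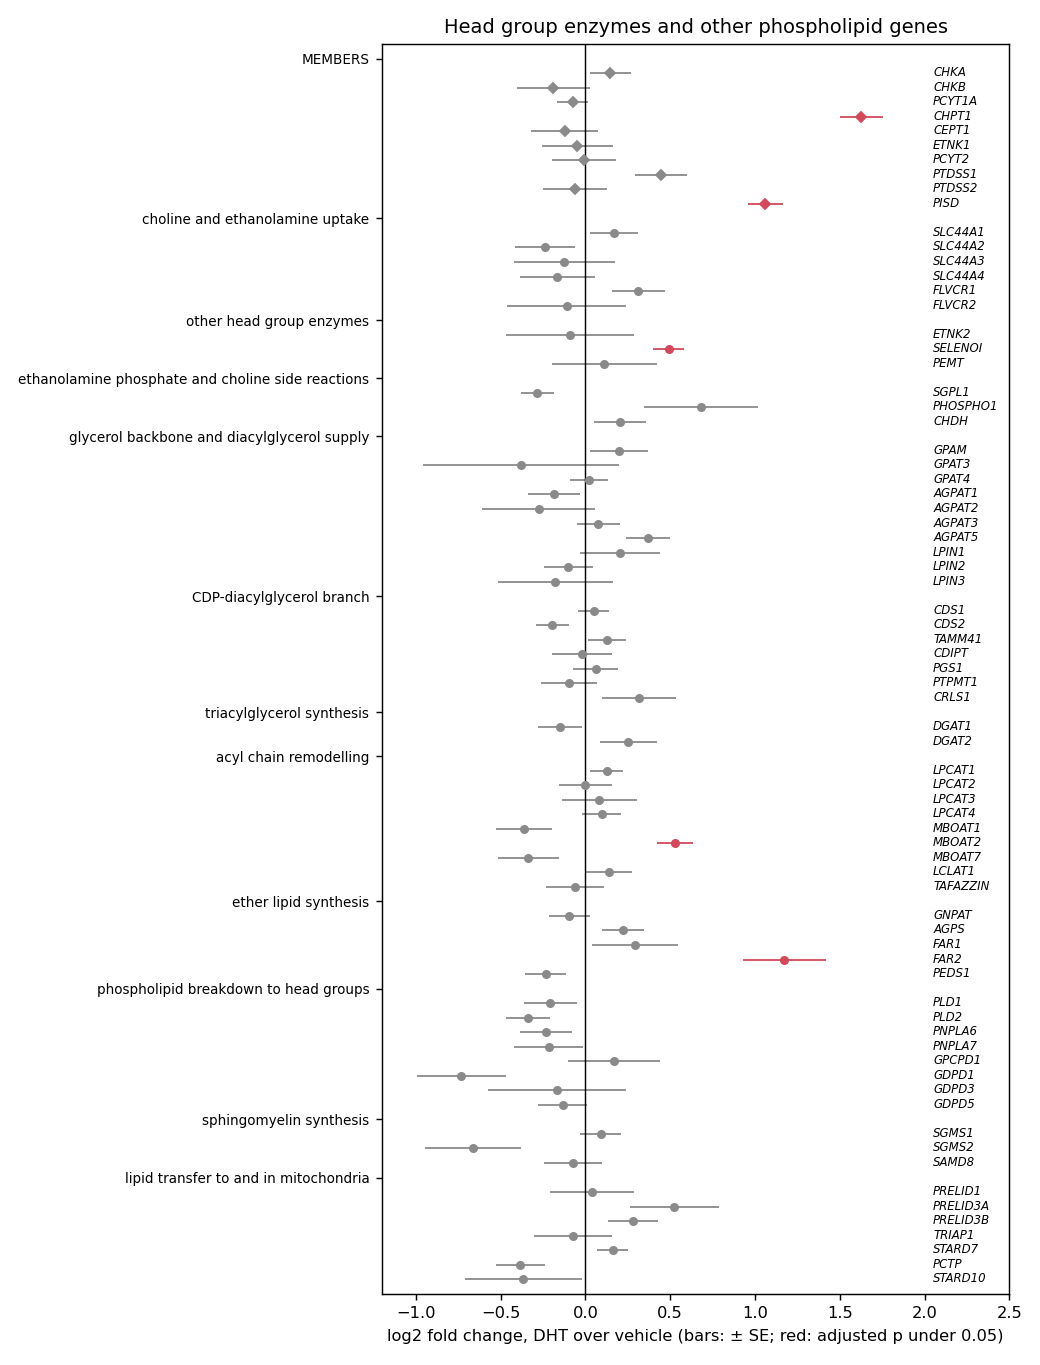
Log2 fold change of DHT over vehicle (horizontal axis, bars ± SE) for the 10 head group enzymes (diamonds) and 63 other phospholipid genes (circles) by role, in red where the adjusted p was under 0.05. CHPT1 at 1.63 and PISD at 1.06 lie to the right of the other members, and FAR2, MBOAT2 and SELENOI are the red circles.

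The genes beside CHPT1 and PISD on their chromosomes were those whose lower coordinate lay within 500 kb of either end of the gene. Near CHPT1, 37 genes were annotated, 11 were tested and 1 was changed, against 2.84% of all genes tested. This was MYBPC1, a myosin-binding protein gene on the same strand that ends 10919 bases before CHPT1 (chromosome 12, 101568353 to 101686028). It had 7 counts in all over the 6 vehicle libraries (0 to 0.212 CPM) and 405 over the 6 DHT libraries (2.28 to 6.04 CPM). MYBPC1 had no overlap between groups (log2 fold change 5.58, SE 0.47, edgeR adjusted p = 9.41e-06). Its fitted fold rests on a vehicle level near 0. GNPTAB, a lysosomal enzyme-tagging gene 1359 bases beyond CHPT1, measured 59.2 ± 9.98 and 71.3 ± 8.21 CPM, a difference that missed the threshold (0.27, SE 0.13, edgeR adjusted p = 0.446).

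SYCP3, a meiotic chromosome gene antisense to CHPT1, shares 566 exon bases (9.45%) with it. It measured 0.453 ± 0.326 CPM in vehicle and 1.30 ± 0.596 CPM in DHT (log2 fold change 1.54, SE 0.52, edgeR adjusted p = 0.185), far below the level of CHPT1. The strand setting of the counting is not known from the labels, so reads of this pair over the shared bases cannot be told apart.

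Near PISD, 45 genes were annotated, 16 were tested and 1 was changed. This gene, INPP5J, a phosphoinositide phosphatase 483794 bases away, fell from 81.2 ± 10.7 to 51.1 ± 4.42 CPM with no overlap between groups (SD, n = 6, log2 fold change -0.67, SE 0.11, edgeR adjusted p = 0.0039). SFI1, a centrosome gene that overlaps PISD by 98 exon bases on the other strand, and PRR14L, 13824 bases from PISD, had log2 fold changes of -0.08 (SE 0.15) and 0.01 (SE 0.12; edgeR adjusted p = 0.933 and 0.990).

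**Figure D4:**
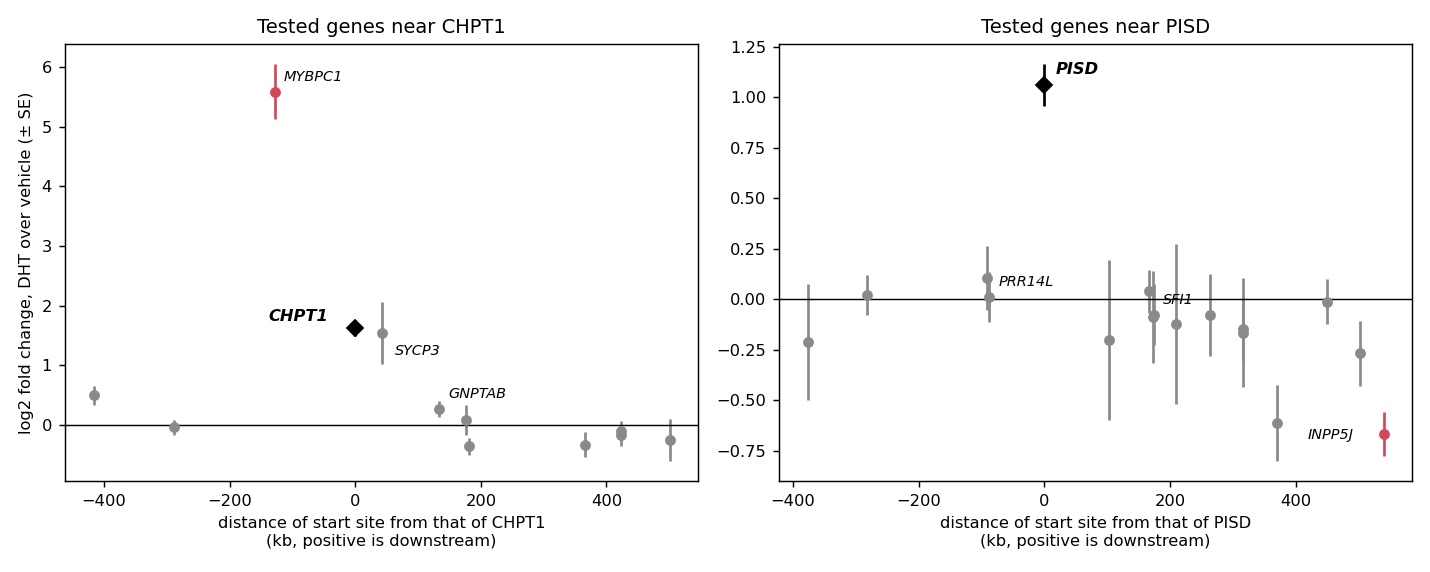
Log2 fold change of DHT over vehicle (vertical axis, bars ± SE) for tested genes near CHPT1 (left) and PISD (right), by the distance between start sites in kb. Black diamonds are CHPT1 and PISD, and red marks an adjusted p under 0.05: MYBPC1 at 5.58 on the left and INPP5J at -0.67 on the right.

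Exons of some other members also overlapped those of other genes. DRAM2, an autophagy gene antisense to CEPT1, covers 288 exon bases of CEPT1 (3.42%). It measured 63.2 ± 16.0 CPM in vehicle and 44.4 ± 4.65 CPM in DHT, above the CEPT1 means of 25.2 and 23.1 CPM. The difference in DRAM2 between groups missed the threshold (log2 fold change -0.51, SE 0.15, edgeR adjusted p = 0.105). PCYT2 shares 28.3% of its exon bases with NPB, which was at 0 CPM in every library, and 34 bases with ANAPC11. CHKA shares 16.3% with an antisense gene without a symbol, at 0.575 ± 0.218 and 0.367 ± 0.137 CPM.

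Over the 12 libraries, the genes most like CHPT1 among 10242 with a mean level of at least 10 CPM were FKBP5 and WNT7B (Pearson r = 0.98 each), and IRX3, NRARP and SEC14L2 (0.97 each). Those most like PISD were POLR3E, TWNK and TSR1 (0.99 each), and CYP4F8 (0.98). The values of CHPT1 and of PISD fall into 2 clusters by treatment, so these correlations mostly describe a shared step between groups. With group means removed, CHPT1 and PISD, which had r = 0.92 over all libraries, had r = -0.50. The genes then nearest CHPT1 were RRM1 (0.96), UBE2C (0.95), CENPH (0.94), KIF2C (0.93) and CDCA5 (0.93), and those nearest PISD were DDX27, MPPE1, POLR2B, CCNE1 and KLHL20 (0.92 each). No gene named here for CHPT1 or PISD was shared between the rankings.

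The replicate 2 cultures stood at the edge of their group for most of these enzymes. In both groups replicate 2 was the highest library for 5 members (CHKA, CHPT1, PCYT2, PTDSS1 and PTDSS2), beside 26.6% of all tested genes. It was the lowest for 3 (CHKB, CEPT1 and ETNK1), beside 25.5%, and thus at an edge for 8 of 10, beside 52.2%. Relative to the other libraries of its group, replicate 2 was lower by 1.22 (vehicle) and 0.67 (DHT) on the log2 scale for ETNK1 and by 0.70 and 0.94 for CEPT1, whose GC contents are 38.7% and 38.0%. It was higher by 0.93 and 0.59 for PCYT2 (GC content 62.6%) and by 0.77 and 0.55 for PTDSS2 (61.4%). CHKB, with a GC content of 59.3%, was lower in replicate 2, by 0.54 and 0.90. Across 14559 genes, which are not independent replicates, the deviation of replicate 2 correlated with GC content at Spearman rho = 0.58 in vehicle and 0.39 in DHT, and its part in the members' values was not tested.

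**Figure D5:**
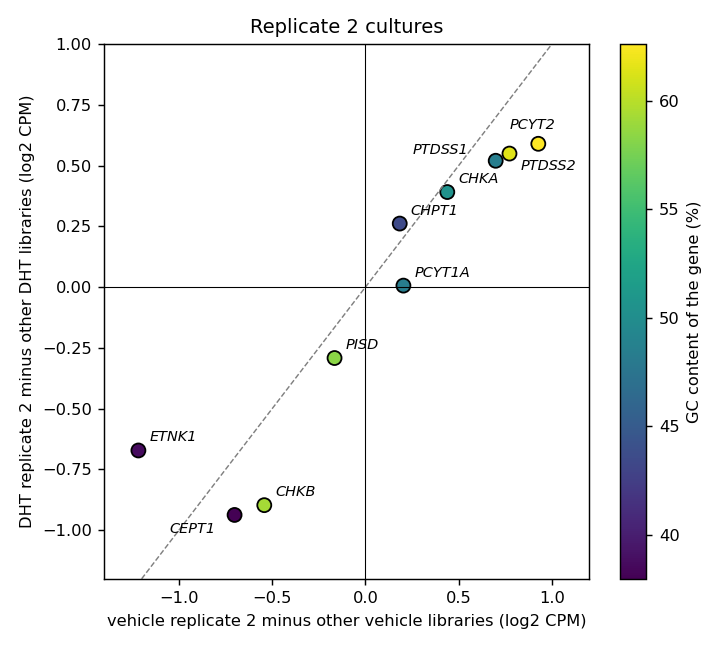
Deviation of replicate 2 from the mean of the other libraries of its group in log2 CPM, vehicle on the horizontal and DHT on the vertical axis, for the 10 members, coloured by GC content in percent, with the dashed line of equal deviation. All 10 members deviate to the same side in both groups, with PCYT1A near 0 in DHT, from ETNK1 at -1.22 in vehicle to PCYT2 at 0.93.

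Some pairs of members also varied together within groups, and others did not. With group means removed, PCYT2 and ETNK1 had r = -0.94, PCYT2 and PTDSS1 r = 0.92, and CEPT1 and ETNK1 r = 0.91 over the 12 libraries, which include replicate 2. These were among the strongest values of all pairs of members. At the weak end, PCYT1A had r = 0.0017 with PISD and -0.03 with CHPT1. The part of replicate 2 in these values was not tested. CHPT1 and PISD, whose groups lay apart with all libraries, deviated less in replicate 2, by 0.18 and 0.26 for CHPT1 and by -0.17 and -0.29 for PISD. Without the replicate 2 libraries, CHPT1 ran from 34.3 to 42.8 CPM in vehicle and from 88.5 to 136 CPM in DHT, and PISD from 39.8 to 52.6 and from 97.8 to 101 CPM.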

How the data were processed

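RNA from 12 cultures of MDA-MB-453 was read as single 40 bp reads from 1 µg of RNA, per the labels' protocols. The design text and the kit name differ on whether poly-A or total RNA was taken. The authors deposited estimated counts per gene, not scaled. The submitters' processing notes name STAR, featureCounts and GRCh38, with no versions. Between 39.6% and 46.7% of nonzero values were not whole (tolerance 0.005). How reads were shared or strand was used is not stated. Symbols came from a supplied gene table. The authors also deposited log2 fold changes, average log2 CPM, p-values and adjusted p-values, and the GC percent and transcript length of 14559 genes, per the file headers, and their model is not stated.

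Estimated counts were rounded, and 1 gene broken over 3 lines was left out. Genes were filtered by filterByExpr, scaled by TMM and fitted with edgeR 4.0.16 (R 4.3.3) with group as the only term and Benjamini-Hochberg adjustment. The SE was derived from the fold change and the F statistic of each gene. The fit was checked on simulated counts. Library measures were compared by exact permutation over 924 labelings. Levels per kb use exon length from the count table, and correlations use log2 CPM with a prior count of 2. CPM values are given as mean ± SD or as lowest, median and highest. CHKB had the fewest counts of the members, 21 to 69 per library.

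The members and lists were chosen with earlier results of these data known. Genes named are the 10 members, all changed genes of the pathway list, changed and nearest tested genes beside CHPT1 and PISD, the 5 most like each, FKBP5 and genes sharing exon bases with a member. Exceptions are named in the text, and some items the rule gives are not reported here. Replicate numbers were not used as pairs in the main fit. Same-numbered libraries had correlations of deviations from group means of 0.51, 0.87, 0.44, 0.26, -0.24 and 0.46 for replicates 1 to 6, and not all were above the limit set. These values cannot show whether cultures of the same number came from the same passage. Alternatives were DESeq2 1.42.0, limma-voom (limma 3.58.1), other scalings and filters, a replicate block, unrounded counts, other lengths and leaving out libraries.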

Additional observations from a re-analysis of the deposited data

Results flagged for a closer look

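In 36 groups of 6 values screened for a sample far from the others, 7 had an end value whose gap to its neighbour was large for the range of the group, where chance gives about 1 in 20 groups. Of these, 6 were replicate 2 libraries. In vehicle, replicate 2 held the highest CHKA level at 60.5 CPM (next 47.4), the highest PCYT2 level at 161 CPM (next 94.1) and the highest PTDSS1 level at 167 CPM (next 109.6). In DHT, replicate 2 held the highest PCYT2 level at 134 CPM (next 95.7), the highest PTDSS1 level at 207 CPM (next 149) and the lowest PISD level at 80.9 CPM (next 97.8). The seventh was the total of vehicle replicate 6, at 4346465 counts (next 13241302).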

How the results depend on the processing

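CHPT1 and PISD kept their direction and counted as changed in all 21 other fits, with log2 fold changes of 1.58 to 1.71 and 1.02 to 1.10. All these fits draw on the same libraries, whose difference was known when the members were chosen, and are no independent support. PTDSS1 ran from 0.34 to 0.58 and counted as changed in 3 of them: with the replicate block, without the replicate 2 library of vehicle alone, and without those of both groups. The other 7 members counted as changed in none. Members changed numbered 3 in those 3 fits and 2 in the rest, and thus 2 to 3 when each of the 12 libraries was left out in turn. The count over all genes was 464 as reported, 778 with DESeq2 and 920 without both replicate 2 libraries. With 1 library left out it ran from 278 to 619, including 278 without DHT replicate 1, 280 without DHT replicate 6, 282 without DHT replicate 3, 301 without DHT replicate 4 and 306 without vehicle replicate 3. Changed pathway genes numbered 3 as reported, 1 (FAR2) with no filter on low counts, and 2 to 3 with 1 library left out. The log2 fold changes that missed the threshold were 0.51 for SELENOI and 0.55 for MBOAT2 with no filter, and 1.14 and 1.09 for FAR2 without vehicle replicate 3 and DHT replicate 6. Adjusted p over the 21 fits ran from 2.99e-08 to 0.0503 for SELENOI, from 1.22e-05 to 0.0537 for MBOAT2, from 3.02e-04 to 0.0521 for FAR2, from 8.97e-18 to 7.49e-05 for MYBPC1 and from 2.33e-06 to 0.0151 for INPP5J. The causes were not tested.

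With the replicate number as a block, 1286 genes, 3 members and 5 pathway genes (with AGPAT5 and PRELID3A) counted as changed. Not every library correlated best with the library of its own number, so the numbers are not read as pairs, although this cannot show that they were not. Among ranks of level in vehicle, CPM without length put ETNK1 at 4, CHKA at 5, PISD at 6 and CHPT1 at 7. The authors' transcript length, chosen after seeing the data, put PCYT2 at 2, PTDSS1 at 3, ETNK1 at 5, PTDSS2 at 6, PISD at 7 and CHPT1 at 8. With deviations from group means, 0 of the 5 genes most like CHPT1 and 0 of the 5 most like PISD were kept, and within 250 kb 0 genes near PISD had changed. Counts were lowest for CHKB, at 21 to 69 per library.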
